A study of Mus musculus with 19 samples.

Results

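Rab GTPases are the small GTPases that give membranes inside the cell their identity. Their transcripts were followed in dendrites cut from cultured mouse hippocampal neurons of 2 inbred strains, Balb/c and C57BL/6. A gene was taken as a member where its symbol was Rab followed by a number and at most 1 letter, which leaves out the proteins that regulate or bind Rabs. This rule found 59 members among the 18193 genes with a value, measured by 132 probe sets, of which 21 members had 1 and 38 had several, at most 7. Where several probe sets with 1 gene symbol measured a gene, their median was used.

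A Rab protein works as a switch. A guanine nucleotide exchange factor (GEF) loads it with GTP on a membrane, where it recruits effectors such as tethers, motors and coat adaptors, and a GTPase activating protein (GAP) turns it off again. The GDP-bound form is drawn off the membrane by GDP dissociation inhibitor (GDI), which can do so because Rabs carry prenyl groups that the geranylgeranyl transferase adds with the help of an escort protein. Different Rabs mark different compartments, and in neurons they govern the release of synaptic vesicles and the recycling of receptors in dendrites.

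Each of 19 arrays held 1 pool of dendrites from hippocampal neurons of E18 embryos that had been in primary culture for 14 days. Pools of 100, 200 and 400 dendrites were used, on 2, 1 and 2 arrays in Balb/c (5 in all) and on 4, 5 and 5 arrays in C57BL/6 (14 in all). The labels name no transgene and no treatment, so the groups differed in strain and pool size. The study set the strains beside each other and beside the rat. Dendrites were taken up by micropipette once the soma had been removed. They could not be told from axons by shape, so the pools hold some axonal RNA, and the RNA was amplified in several rounds. In such pools, fewer dendrites of a kind and less RNA per dendrite cannot be told apart. An array's name gives its strain, the dendrites in its pool and the replicate (Balb/c 200-1), and the 5 Balb/c values of a gene are always given in the order 100-1, 100-2, 200-1, 400-1 and 400-2.

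Values are the deposited log2 signals. The signals of different probe sets have no common scale, so they are compared for 1 gene between arrays. Differences are Balb/c minus C57BL/6. Over all genes the median of these differences was 0.216, and differences are therefore also given relative to that median gene. The adjusted p beside such a value is that of the difference as deposited, tested against 0, so the shift of the median gene is part of what was tested.

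Several features of the series touch every result below. The deposited columns came in a long and a short number format, which was handled as a batch. All 5 Balb/c arrays and 4 C57BL/6 arrays (100-1, 100-2, 200-1 and 400-1) had the long format, and the other 10 C57BL/6 arrays the short one. Over all genes, 2 of the 19 arrays correlated better with the other strain than with their own. The array labelled Balb/c 200-1 had a mean correlation of 0.782 with C57BL/6 and of 0.678 with the rest of its own strain. The array labelled C57BL/6 200-1 had 0.781 with Balb/c and 0.757 with the rest of its own strain. Both hold 200 dendrites and carry the number 1, and they follow each other in the sample list. They were kept under their labels, and the counts of calls are also given without them. C57BL/6 400-1, at 0.779 with its own strain and 0.722 with Balb/c, was nearer to Balb/c than the remaining C57BL/6 arrays. The control probe sets for Actb sit at both ends of the transcript, and their 3' signal minus their 5' signal, which grows as amplified RNA gets shorter, ran from −0.69 to 2.27 in Balb/c and from 1.17 to 5.56 in C57BL/6. For Gapdh the ranges of the strains overlapped, at 1.48 to 4.72 in Balb/c and 2.39 to 5.00 in C57BL/6, with means of 3.14 and 3.27. Olfactory and vomeronasal receptor genes, which dendrites are not known to use, were also higher in Balb/c. Of these 71 genes, 31 passed the strain test as higher and 0 as lower, with a median difference of 0.688, or 0.495 with the number format as a block. Marker genes were read against the receptor genes of the same array. Of the 6 neuron markers, Rbfox3, Syn1 and Camk2b were above the receptor median in all 19 arrays, Map2, the dendritic microtubule protein, and Snap25 in 16 and Tubb3 in 14. Rbfox3 and Syn1 were above the 95th percentile of the receptor genes in 14 arrays, Camk2b in 1 and the other 3 in 0. Of the 5 pyramidal neuron markers, Nrgn was above that percentile in all 19, Crym and Neurod6 in 9 and Camk2a and Slc17a7 in 0. Of the 6 interneuron markers, Gad1 was above it in 15, Gad2 and Sst in 3 and Pvalb, Vip and Slc32a1 in 0. Of the 6 astrocyte markers, the glutamate transporters Slc1a3 and Slc1a2 were above the receptor median in all 19 arrays, Aqp4 in 10, Gfap in 9, Aldh1l1 in 4 and Gjb6 in 2, and each was above the 95th percentile in 0. Of the 6 microglia markers, Csf1r and Cx3cr1 were above the median in all 19, Tmem119 in 11, C1qa in 10 and P2ry12 and Aif1 in 2, and Cx3cr1 and Csf1r were above the 95th percentile in 5 and 1. Against the same percentile, 31 Rab genes were above it in 0 arrays, 19 in 1 to 9 and 9 in 10 or more, and Rab19 and Rab33b were above it in all 19.

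The start regions of a few Rab genes are shown here because these genes stand at the centre of the strain comparison. Rab5a, Rab5b and Rab5c encode close relatives on the same early endosomes and were called in opposite directions, and Rab3b and Rab17 had the largest called difference in each direction. The 250 bases before the annotated start are printed (RefSeq, GRCm38.p6), 5' to 3' on the strand of the gene. Capitals mark GGGCGG or its reverse complement CCGCCC, the core of the GC box, with overlapping matches joined. The windows lie at chr17:53478984-53479233 (plus strand) for Rab5a, chr10:128696269-128696518 (minus strand) for Rab5b, chr11:100738216-100738465 (minus strand) for Rab5c, chr4:108878820-108879069 (plus strand) for Rab3b and chr1:90967668-90967917 (minus strand) for Rab17.
Rab5a: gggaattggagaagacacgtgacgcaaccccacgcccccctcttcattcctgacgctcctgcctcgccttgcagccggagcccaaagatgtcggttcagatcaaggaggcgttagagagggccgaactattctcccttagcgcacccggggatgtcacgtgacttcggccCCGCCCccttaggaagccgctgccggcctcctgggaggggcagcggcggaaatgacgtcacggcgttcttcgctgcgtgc
Rab5b: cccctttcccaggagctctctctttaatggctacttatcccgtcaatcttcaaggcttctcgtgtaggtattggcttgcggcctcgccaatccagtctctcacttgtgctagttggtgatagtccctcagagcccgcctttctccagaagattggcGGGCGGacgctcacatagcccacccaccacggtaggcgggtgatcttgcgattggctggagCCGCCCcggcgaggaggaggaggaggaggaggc
Rab5c: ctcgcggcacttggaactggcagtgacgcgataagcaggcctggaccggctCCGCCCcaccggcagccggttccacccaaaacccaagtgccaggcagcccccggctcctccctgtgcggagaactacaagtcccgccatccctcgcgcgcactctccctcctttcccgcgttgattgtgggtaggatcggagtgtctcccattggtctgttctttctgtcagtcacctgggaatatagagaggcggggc
Rab3b: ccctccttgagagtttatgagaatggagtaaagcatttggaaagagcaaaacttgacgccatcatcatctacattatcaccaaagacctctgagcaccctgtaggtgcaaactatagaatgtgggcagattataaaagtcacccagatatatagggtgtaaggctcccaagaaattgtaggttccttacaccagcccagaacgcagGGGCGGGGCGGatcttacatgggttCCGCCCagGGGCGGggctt
Rab17: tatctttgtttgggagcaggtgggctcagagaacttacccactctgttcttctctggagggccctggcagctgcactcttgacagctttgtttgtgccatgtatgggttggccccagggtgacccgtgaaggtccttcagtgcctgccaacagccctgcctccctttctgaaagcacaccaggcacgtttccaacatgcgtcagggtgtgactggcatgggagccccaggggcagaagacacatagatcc

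Rab3b had 4 such motifs in a window with 6 CpG dinucleotides, and Rab17 had 0 motifs and 3 CpG dinucleotides. Rab5a, Rab5b and Rab5c had 1, 2 and 1 motifs and 23, 14 and 18 CpG dinucleotides. Of the 59 members, 48 had a window in the table, taking the first where there were several. The motif was present in 33 of the 48 (68.8%), against 49.9% of 14452 genes on the array and 32.7% of all 32851 windows of the table. Members called lower in Balb/c had it in 6 of 9 windows, members called higher in 6 of 11 and the rest in 21 of 28. A match is only a run of letters and does not show that a factor binds there.

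In the strain comparison, 27 of the 59 Rab genes passed the test across all genes (limma, Benjamini-Hochberg adjusted p below 0.05). Of these, 11 were lower in Balb/c and 16 higher. The background over all genes was 32.5% in either direction, with 11.4% lower and 21.1% higher, beside 18.6% and 27.1% of the members. That gap was not tested. The median difference as deposited was −1.44 for the members called lower and 1.02 for those called higher. The 11 were Rab3b, Rab9, Rab6a, Rab10, Rab5c, Rab5a, Rab4b, Rab6b, Rab39b, Rab18 and Rab2a. The 16 were Rab17, Rab36, Rab43, Rab11b, Rab25, Rab37, Rab8b, Rab32, Rab44, Rab5b, Rab3d, Rab31, Rab38, Rab34, Rab27a and Rab30. The balance between the directions depended on the scaling. Centring each array on its median gave 13 lower and 11 higher, where the lower ones then included Rab11a and the higher ones no longer included Rab32 and Rab38, among others. Quantile normalisation gave 13 lower and 13 higher, median centring with range scaling gave 14 and 11, and shifting each array by the median of its receptor genes gave 23 and 1. Scaling moves all genes. Their median difference was 0.0704 with centring, 0.0951 with quantile normalisation and 0.0755 with range scaling. The shares of all genes called under these scalings are not given here, so the change in balance is not shown to be particular to the Rab genes. In 0 members did the arrays of the strains separate completely, against 0.418% of all genes with every Balb/c array below every C57BL/6 array and 0.797% with every one above.

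**Figure D1:**
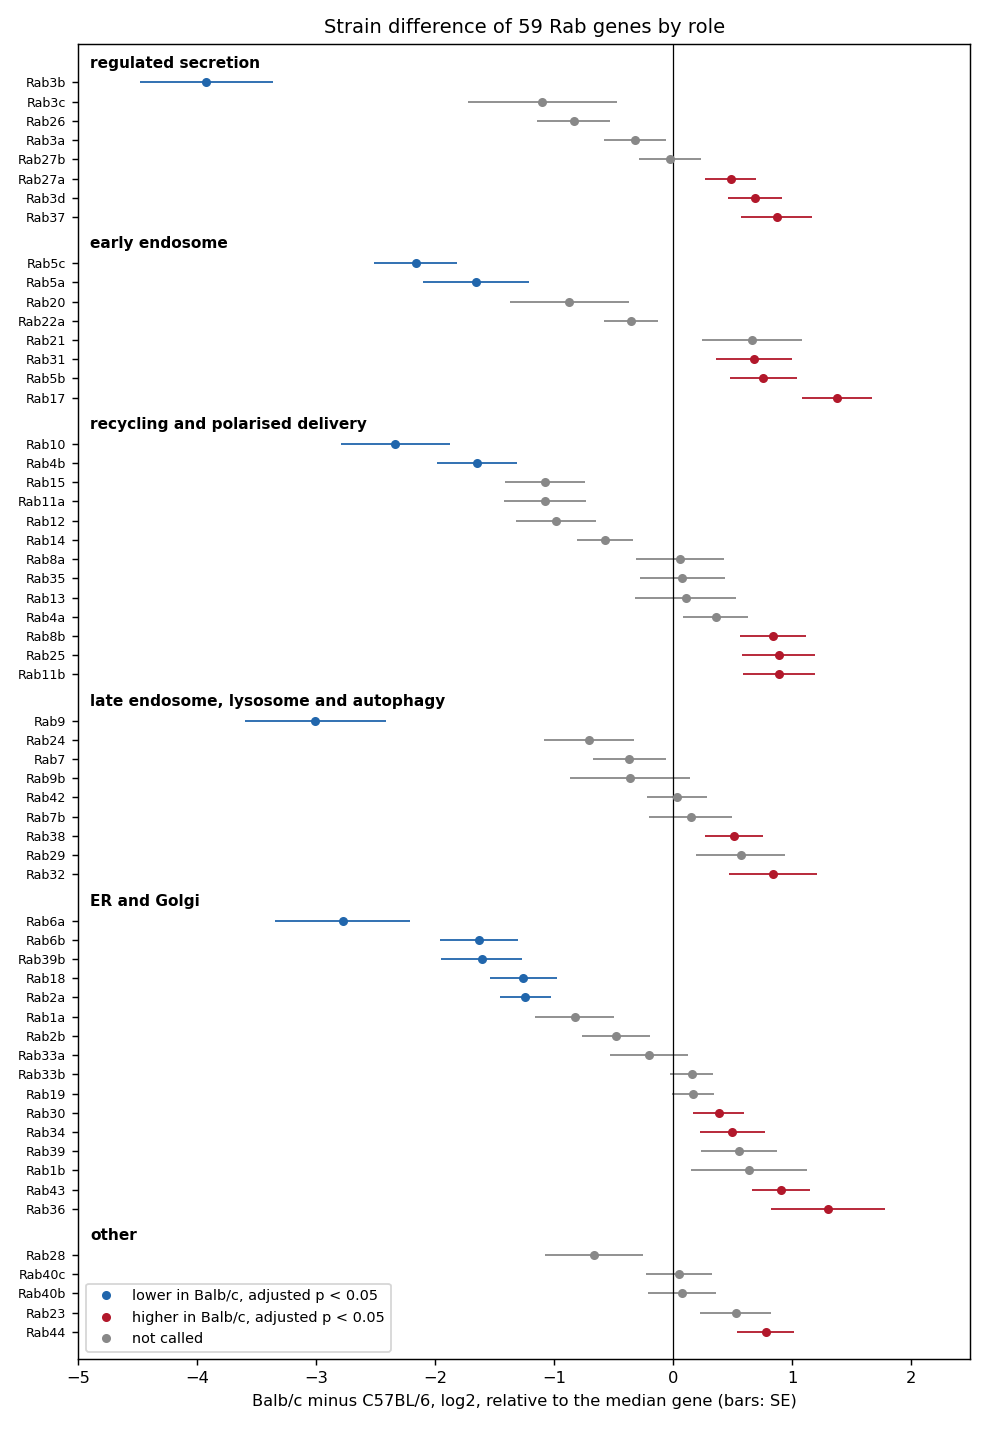
Strain difference (Balb/c minus C57BL/6, log2, relative to the median gene) of the 59 Rab genes, grouped by the compartment or step they are best known for. Points are limma estimates from 5 and 14 arrays, bars are their SE, and colour gives the call at an adjusted p of 0.05. Each named role holds members on both sides of 0, and the range runs from −3.93 for Rab3b to 1.38 for Rab17.

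Among the 8 Rabs of regulated secretion, 1 was lower, 3 were higher and 4 were not called. Rab3b, a Rab of secretory vesicles, was at 6.51, 6.59, 10.24, 6.69 and 7.03 in Balb/c and ran from 8.27 to 12.25 with a median of 11.40 in C57BL/6. Balb/c 200-1 was the high Balb/c array and C57BL/6 200-1 the low C57BL/6 array, and the other 4 Balb/c arrays lay below every C57BL/6 array. The means were 7.41 ± 1.59 (SD, n = 5) and 11.12 ± 1.06 (SD, n = 14), a difference of −3.71 as deposited and −3.93 ± 0.56 (SE) against the median gene, with a limma adjusted p of 0.000176. Rab3a, the main Rab of synaptic vesicles in the brain, was at 9.14, 9.08, 10.94, 9.38 and 9.67 in Balb/c and 9.18 to 10.38 with a median of 9.69 in C57BL/6. Of the Balb/c arrays, 2 were below and 1 was above every C57BL/6 array, and the difference was −0.32 ± 0.26 (adjusted p = 0.787). Rab3d, known from the granules of exocrine cells and mast cells, was at 7.36, 7.78, 7.32, 7.95 and 7.49 in Balb/c against 6.08 to 7.57 with a median of 6.72 in C57BL/6. Only C57BL/6 200-1 reached above the lowest Balb/c array, and the difference was 0.69 ± 0.23 (adjusted p = 0.00551). Of the 4 probe sets of Rab3d, 2 were called higher, and the brightest was not called, at 0.58 as deposited (limma adjusted p = 0.191). Rab37, another granule Rab, was at 6.01, 7.31, 5.86, 7.01 and 6.55 against 4.57 to 6.15 with a median of 5.54. In 3 Balb/c arrays it was above every C57BL/6 array, and the difference was 0.87 ± 0.30 (adjusted p = 0.00928). Rab27a, which docks secretory lysosomes and melanosomes, differed by 0.48 ± 0.21 (adjusted p = 0.0157). Of its 4 probe sets, 1 was called higher, and the brightest was not called, at 0.57 as deposited (limma adjusted p = 0.205). Not called were Rab3c at −1.10 ± 0.62 (adjusted p = 0.282), Rab26 at −0.84 ± 0.31 (adjusted p = 0.125) and Rab27b at −0.02 ± 0.26 (adjusted p = 0.598). For Rab3c, single C57BL/6 arrays ran from 5.21 to 10.28, and 3 of its 5 probe sets were themselves called lower.

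**Figure D2:**
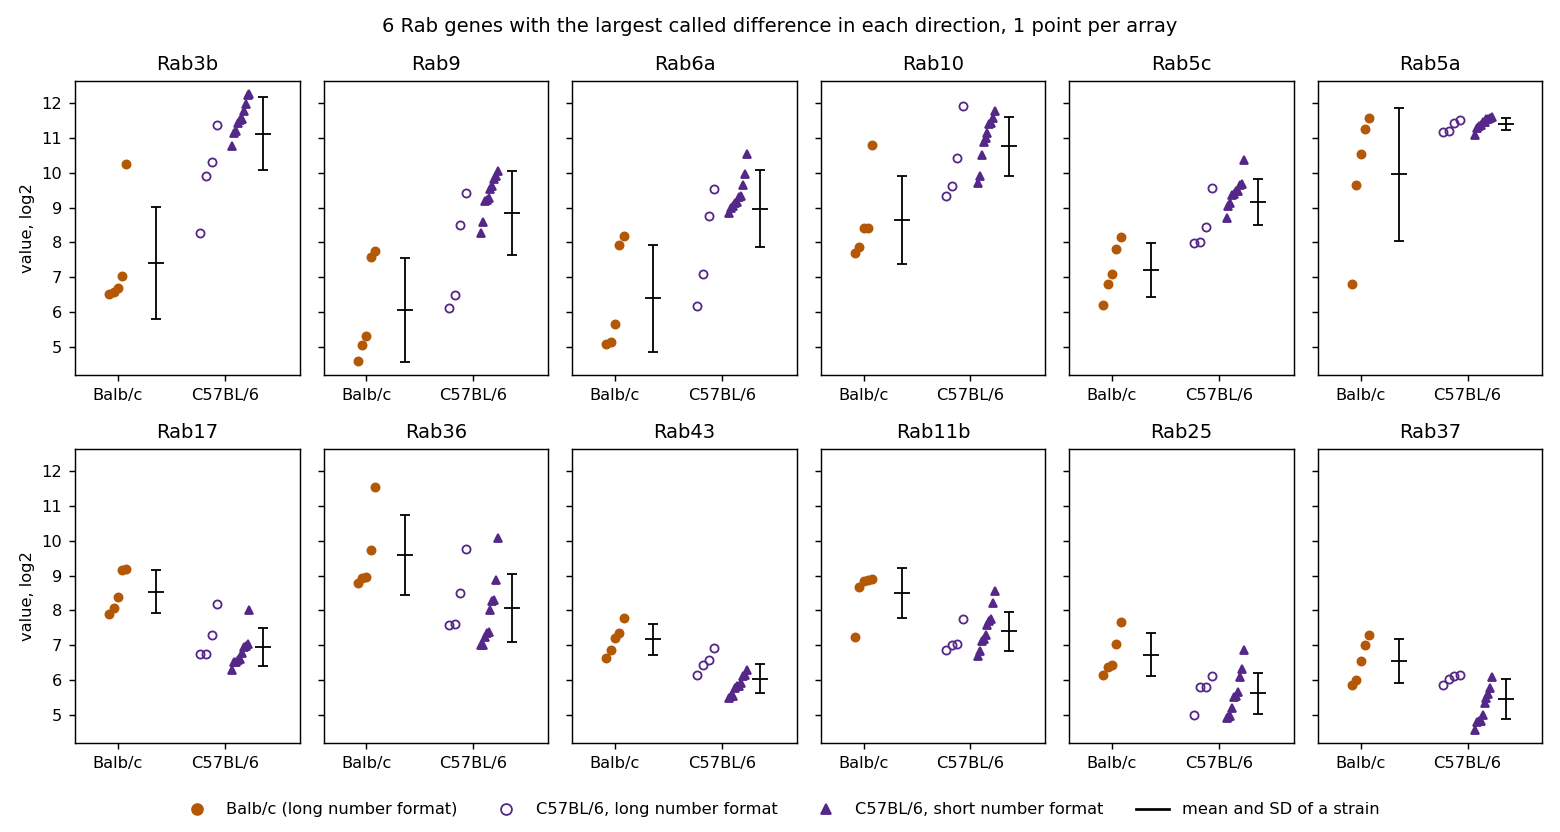
Deposited log2 value in each of the 19 arrays for the 6 Rab genes with the largest called difference in each direction (upper row lower in Balb/c, lower row higher). Points are arrays, marked by strain and number format, and black bars give the mean and SD of a strain. In Rab3b a single Balb/c array, at 10.24, lies inside the C57BL/6 range, and in Rab5a the C57BL/6 arrays span only 11.07 to 11.60 while Balb/c runs from 6.81 to 11.56.

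Of the 8 Rabs of early endosomes, 2 were lower, 3 were higher and 3 were not called. Rab5c, which like its relatives drives fusion of early endosomes, was at 6.19, 6.82, 8.14, 7.09 and 7.82 in Balb/c and 7.97 to 10.37 with a median of 9.38 in C57BL/6. The overlap was limited to Balb/c 200-1 and 2 C57BL/6 arrays, and the difference was −1.95 as deposited and −2.17 ± 0.35 (SE) against the median gene, with a limma adjusted p of 0.000514. Rab5a, the best studied of the 3 Rab5 genes and present in dendritic endosomes, was at 9.64, 11.56, 11.24, 6.81 and 10.54 against 11.07 to 11.60 with a median of 11.44. Its difference of −1.65 ± 0.45 (adjusted p = 0.0175) rested on Balb/c 400-1. Without that array it was −0.65 as deposited and no longer called. Rab5b moved the other way. It was at 7.28, 7.22, 6.87, 7.35 and 6.77 in Balb/c and 5.17 to 7.50 with a median of 6.20 in C57BL/6, where only C57BL/6 100-2 reached above the lowest Balb/c array, and it differed by 0.76 ± 0.28 (adjusted p = 0.0116). Rab17, known from polarised epithelia and from the growth of dendrites, was at 8.06, 9.17, 7.91, 8.38 and 9.19 against 6.28 to 8.19 with a median of 6.76. The highest 3 Balb/c arrays were above all C57BL/6 arrays, and the difference of 1.60 as deposited, or 1.38 ± 0.30 (adjusted p = 0.000671), was the largest in this direction among the members. Both of its probe sets were called higher. Rab31, which acts between the trans-Golgi network and endosomes, differed by 0.68 ± 0.32 (adjusted p = 0.0354). Rab20 at −0.87 ± 0.50 (adjusted p = 0.319), Rab21, a Rab of integrin uptake, at 0.66 ± 0.42 (adjusted p = 0.109) and Rab22a at −0.35 ± 0.23 (adjusted p = 0.67) were not called. The probe sets of Rab22a disagreed, with 2 called higher and 1 called lower, and it was the only member with calls in both directions.

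Of the 13 Rabs of recycling and polarised delivery, 2 were lower, 3 were higher and 8 were not called. Rab10, which carries vesicles to the surface in growing axons and in fat cells, was at 7.87, 8.42, 10.81, 7.69 and 8.42 in Balb/c and 9.34 to 11.93 with a median of 10.95 in C57BL/6. Balb/c 200-1 lay inside the C57BL/6 range and the other 4 below it, and the difference was −2.12 as deposited and −2.33 ± 0.46 (SE) against the median gene, with a limma adjusted p of 0.00185. Rab4b, a Rab of fast recycling, was at 7.56, 7.08, 10.05, 8.20 and 8.75 against 8.92 to 10.57 with a median of 9.82, again with Balb/c 200-1 inside the C57BL/6 range and the other 4 below it. It differed by −1.65 ± 0.34 (adjusted p = 0.00338). Its relative Rab4a was at 6.72 ± 0.48 in Balb/c and 6.14 ± 0.51 in C57BL/6, with a difference of 0.36 ± 0.27 (adjusted p = 0.109). Rab11a, the recycling endosome Rab that brings AMPA receptors towards spines, was at 8.54, 6.12, 7.27, 6.08 and 6.55 in Balb/c and 6.46 to 8.49 with a median of 7.83 in C57BL/6. Balb/c 100-1 was above and 2 Balb/c arrays were below every C57BL/6 array, and the difference of −1.08 ± 0.34 (adjusted p = 0.0582) missed the threshold. Rab11b was at 8.67, 8.91, 8.84, 8.86 and 7.23 against 6.69 to 8.56 with a median of 7.23, with Balb/c 400-2 close to the C57BL/6 median and the other 4 above every C57BL/6 array, and was higher by 0.89 ± 0.31 (adjusted p = 0.00906). Rab25, the epithelial member of the Rab11 group, was at 6.37, 7.66, 6.16, 7.04 and 6.42 against 4.92 to 6.88 with a median of 5.60 and higher by 0.89 ± 0.31 (adjusted p = 0.00944). Rab8b, which acts in delivery from the Golgi to the surface, was at 9.28, 8.04, 8.45, 7.28 and 8.48 in Balb/c and ran from 6.46 to 8.11 in C57BL/6. In 3 Balb/c arrays it was above every C57BL/6 array, and the difference was 0.84 ± 0.28 (adjusted p = 0.00664). Of its 2 probe sets, the brighter was not called, at 0.23 as deposited (limma adjusted p = 0.722). Rab8a, which acts in the same step and at the primary cilium, was at 7.65 ± 0.74 in Balb/c and 7.37 ± 0.76 in C57BL/6, with a difference of 0.06 ± 0.37 (adjusted p = 0.591). Its 3 probe sets were all positive as deposited and 2 were called higher. The brightest was one of these, at 1.58 (limma adjusted p = 0.00397). Rab15, a neuronal endosomal Rab, was at −1.08 ± 0.34 (adjusted p = 0.0534), the smallest adjusted p among members that were not called. Rab12 was at −0.98 ± 0.34 (adjusted p = 0.0822), Rab14 at −0.57 ± 0.24 (adjusted p = 0.252), Rab35 at 0.08 ± 0.36 (adjusted p = 0.55) and Rab13 at 0.11 ± 0.43 (adjusted p = 0.584). Of the 7 probe sets of Rab14, 3 were called lower.

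Of the 9 Rabs of late endosomes, lysosomes and autophagy, 1 was lower, 2 were higher and 6 were not called. Rab9, which returns mannose 6-phosphate receptors from late endosomes to the Golgi, was at 5.32, 7.57, 7.77, 4.61 and 5.07 in Balb/c and 6.11 to 10.06 with a median of 9.24 in C57BL/6. The 2 higher Balb/c arrays, 100-2 and 200-1, overlapped with C57BL/6 200-1 and 400-1, and the difference was −2.79 as deposited and −3.01 ± 0.59 (SE) against the median gene, with a limma adjusted p of 0.00166. Rab7, the Rab that takes cargo to lysosomes, was at 8.10 ± 0.72 in Balb/c and 8.25 ± 0.56 in C57BL/6, with a difference of −0.37 ± 0.31 (adjusted p = 0.729). Rab32 and Rab38, which build melanosomes and other lysosome-related organelles, were higher by 0.84 ± 0.37 (adjusted p = 0.0333) and 0.51 ± 0.25 (adjusted p = 0.0272). Rab38 had 1 probe set called higher and a brighter one at −0.15. Rab29, a partner of the kinase Lrrk2, was at 0.57 ± 0.37 (adjusted p = 0.109). Rab24, an autophagy Rab, was at −0.70 ± 0.38 (adjusted p = 0.331), Rab9b at −0.36 ± 0.50 (adjusted p = 0.845), Rab7b at 0.15 ± 0.35 (adjusted p = 0.434) and Rab42 at 0.03 ± 0.25 (adjusted p = 0.464). Rab9b in Balb/c ran from 6.17 to 10.56, a wider range than in C57BL/6, at 6.83 to 8.94.

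The ER and Golgi group was the largest, with 16 members of which 5 were lower, 4 higher and 7 not called. Rab6a, the general Golgi Rab of the pair with Rab6b, was at 5.09, 8.20, 7.93, 5.66 and 5.15 in Balb/c and 6.19 to 10.53 with a median of 9.14 in C57BL/6. In 3 Balb/c arrays it was below every C57BL/6 array, and C57BL/6 200-1 and 100-2 were the low C57BL/6 arrays. The difference was −2.56 as deposited and −2.78 ± 0.57 (SE) against the median gene, with a limma adjusted p of 0.00224. Rab6b, its neuronal relative, was at 7.72, 6.76, 7.65, 5.98 and 8.76 against 7.79 to 9.40 with a median of 8.92 and lower, at −1.64 ± 0.33 (adjusted p = 0.0031). Rab39b, a neuronal Rab in which mutations cause intellectual disability, was at 6.26, 7.01, 6.37, 6.17 and 6.92 against 6.62 to 9.05 with a median of 7.90. Only C57BL/6 200-1 overlapped with Balb/c, and the difference was −1.61 ± 0.34 (adjusted p = 0.00412). Rab18, of the ER and lipid droplets, was lower, at −1.26 ± 0.28 (adjusted p = 0.0083). Rab2a, which acts between ER and Golgi, was at 6.45, 6.44, 6.99, 6.79 and 7.63 against 7.52 to 8.55 with a median of 7.76, with 4 Balb/c arrays below every C57BL/6 array, and lower, at −1.24 ± 0.22 (adjusted p = 0.00171). Its 7 probe sets differed by between −2.96 and 0.51 as deposited, and the brightest was the one at 0.51. Rab36 was at 8.92, 9.74, 8.78, 11.54 and 8.94 in Balb/c and 7.01 to 10.08 with a median of 7.81 in C57BL/6, and higher by 1.30 ± 0.48 (adjusted p = 0.0192). That call was lost without Balb/c 400-1, its high array, leaving 1.03 as deposited. Of the 3 probe sets of Rab36, 1 was called higher, and the brightest was not called, at 0.27 as deposited (limma adjusted p = 0.298). Rab43, a Golgi Rab, was at 6.65, 6.85, 7.35, 7.20 and 7.78 against 5.50 to 6.93 with a median of 6.01, with C57BL/6 200-1 the only array in the Balb/c range. It was higher by 0.91 ± 0.24 (adjusted p = 0.00194), with 2 probe sets called higher and the brightest at −0.58. Rab30 and Rab34 were higher by 0.38 ± 0.22 (adjusted p = 0.0366) and 0.50 ± 0.27 (adjusted p = 0.0495). Rab30 had 1 probe set called higher and a brighter one at −0.06. Rab1a and Rab1b, which start traffic from the ER to the Golgi, were at −0.83 ± 0.33 (adjusted p = 0.16) and 0.64 ± 0.49 (adjusted p = 0.183), and for Rab1b Balb/c 100-1 was at 11.21 while the other 4 ran from 6.19 to 7.75. Rab19 and Rab33b were at 12.37 ± 0.31 in Balb/c and 11.99 ± 0.15 in C57BL/6 for Rab19 and at 12.23 ± 0.20 in Balb/c and 11.85 ± 0.22 in C57BL/6 for Rab33b. Their differences of 0.17 ± 0.18 (adjusted p = 0.099) and 0.16 ± 0.18 (adjusted p = 0.114) were small and not called. Rab2b was at −0.48 ± 0.29 (adjusted p = 0.496), Rab33a at −0.20 ± 0.33 (adjusted p = 0.98) and Rab39 at 0.55 ± 0.32 (adjusted p = 0.0665).

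Among the remaining 5 Rabs, Rab44, a large Rab with calcium-binding EF hands, was the only one called. It was at 6.82, 7.23, 6.85, 6.64 and 6.96 in Balb/c and 5.10 to 6.70 with a median of 5.81 in C57BL/6, where only 200-2 reached above the lowest Balb/c array, and it was higher by 0.78 ± 0.24 (adjusted p = 0.00383). Rab23, a regulator of Hedgehog signalling, was at 7.05 ± 0.75 in Balb/c and 6.31 ± 0.49 in C57BL/6, with a difference of 0.52 ± 0.29 (adjusted p = 0.0569). Rab28, a Rab of cilia, was at 6.63 ± 1.26 in Balb/c and 7.07 ± 0.69 in C57BL/6, with a difference of −0.66 ± 0.41 (adjusted p = 0.419). Rab40b and Rab40c, which carry a SOCS box that recruits ubiquitin ligases, were at 0.08 ± 0.29 (adjusted p = 0.449) and 0.05 ± 0.28 (adjusted p = 0.481).

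Close relatives could be set against each other within an array, where a shift that is equal for all genes of the array drops out. A shift that depends on the signal level of a gene does not drop out. Of 14 groups with 2 or more members, Rab3 and Rab5 were called in both directions, 8 in 1 direction and 4 in neither. Rab5c minus Rab5b ran from −1.08 to 1.27 in the 5 Balb/c arrays and from 0.47 to 5.20 in the 14 C57BL/6 arrays, with a C57BL/6 median of 3.24. The ranges of the strains shared only the stretch from 0.47 to 1.27. Rab3b minus Rab3d ran from −1.26 to 2.92 in Balb/c and from 0.70 to 5.45 in C57BL/6, with a median of 4.90. Rab4b minus Rab4a ran from 0.45 to 3.76 against 2.55 to 4.88. Rab11a minus Rab11b, of which only Rab11b was called, ran from −2.79 to −0.13 against −1.01 to 1.81. These pairs were picked from the calls above, so the differences between them are descriptions of the same values. They show unequal change in signal within a pair and not which gene of a pair changed. The part of signal level in this was not tested.

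**Figure D3:**
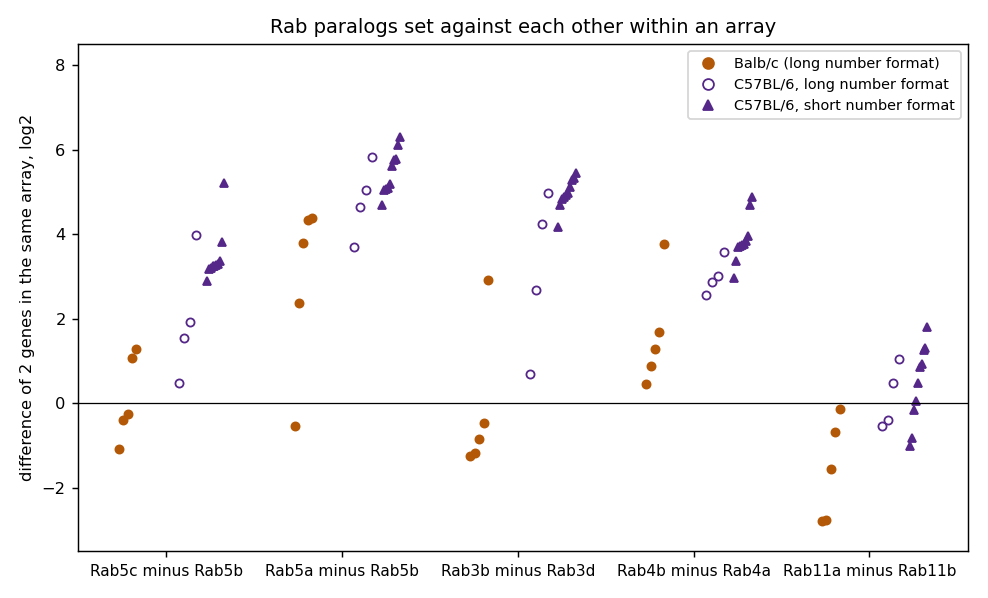
Difference in log2 value between a pair of related Rab genes in the same array, for the 5 pairs named on the horizontal axis, 1 point per array, marked by strain and number format. For Rab5c minus Rab5b the 5 Balb/c arrays lie between −1.08 and 1.27 and the C57BL/6 arrays have a median of 3.24.

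With the number format as a block, which compares the 5 Balb/c arrays with the 4 C57BL/6 arrays of the same format, Rab3b alone of the 59 was called, at −2.56 as deposited (limma adjusted p = 0.0409). The background was 1.28% lower and 0.649% higher. At an unadjusted p below 0.05 there were 21 members (35.6%), against 21.5% of all genes. Within the 9 long-format arrays fitted alone, limma called 0 members and 0% of all genes, with 10 members (16.9%) at an unadjusted p below 0.05 against 13% of all genes. Of the 59 members, 56 kept their sign under the block, among them all 27 called ones. Both fits use the same 5 Balb/c arrays and share the 4 C57BL/6 arrays, so this agreement is no separate evidence for the calls. The 11 lower ones were all smaller, with a median of −1.29 against −1.44, and the 16 higher ones went from a median of 1.02 to 0.70, with 13 smaller. Rab5c was at −1.29 (adjusted p = 0.0786), Rab17 at 1.29 (adjusted p = 0.0648) and Rab11b at 1.34 (adjusted p = 0.0675). Rab10 was at −1.69, Rab9 at −1.57 and Rab6a at −1.49, with adjusted p of 0.106, 0.175 and 0.189.

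**Figure D4:**
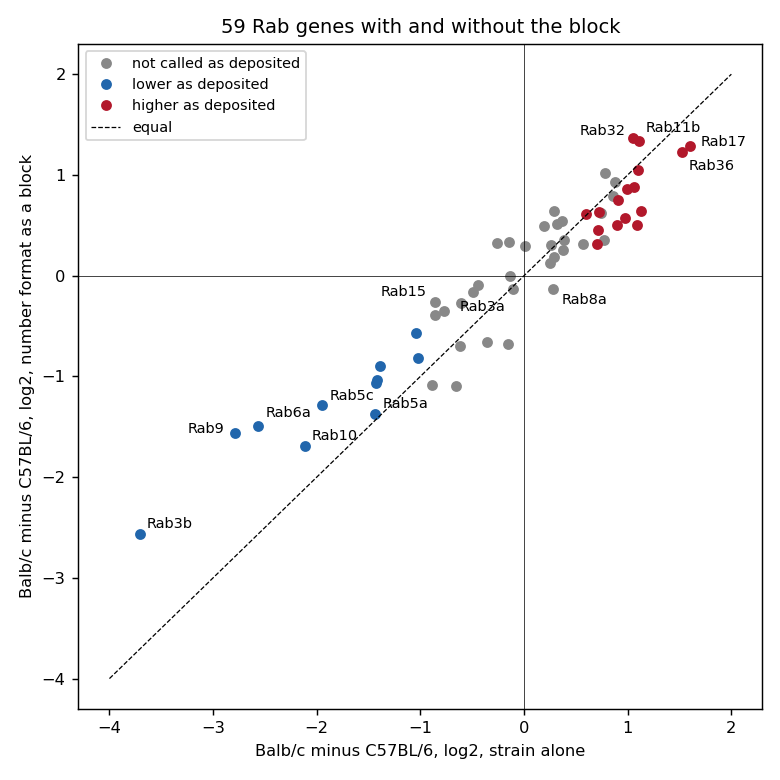
Strain difference (Balb/c minus C57BL/6, log2, as deposited) of the 59 Rab genes fitted with strain alone (horizontal axis) and with the number format as a block (vertical axis), coloured by the call with strain alone. The dashed line marks equal values. Rab3b is the farthest point, at −3.71 and −2.56, and the 11 blue points lie closer to 0 with the block.

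The C57BL/6 arrays alone show how the format went with these genes. In all 11 members called lower, the 4 long-format C57BL/6 arrays had a lower mean than the 10 of the short format, with a median gap of −0.66. For Rab9 the gap was −1.71, for Rab3b −1.61 and for Rab6a −1.50. In 13 of the 16 members called higher the long-format C57BL/6 arrays were the higher ones. How often the same holds among all genes called lower or higher is not given here. It is therefore not shown to be particular to the Rab genes. In the test between the formats within C57BL/6, limma called 0 members and 0.643% of all genes, and 12 members (20.3%) had an unadjusted p below 0.05 against 17.5% of all genes. Format and the arrays that stand apart overlap, since C57BL/6 200-1 and 400-1 have the long format. C57BL/6 200-1 was the lowest C57BL/6 array in 5 of the 11 members called lower, and Balb/c 200-1 was the highest Balb/c array in 5. Without the 200-1 arrays of both strains, an alternative chosen after seeing the data, 13 members were lower and 20 higher. Among the members called with all arrays, Rab3b was then at −4.64, Rab9 at −3.43, Rab10 at −2.75 and Rab17 at 1.85 as deposited. Leaving out C57BL/6 400-1 as well gave the same counts. Fitting all arrays but 1 in turn gave 10 to 13 lower and 11 to 19 higher, and 19 members were called in every such fit, 10 lower and 9 higher. Rab5a was the lower member that was not, and Rab27a, Rab30, Rab31, Rab32, Rab34, Rab36 and Rab38 were the higher ones. For the fits that leave arrays out, the shares of all genes called are not given here. Their counts of members therefore have no background beside them.

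Calls near the threshold turned on single arrays, as the difference as deposited without an array shows. Rab32 was at 0.91, 1.09, 1.01 and 0.93 without Balb/c 100-1, 100-2, 400-1 and 400-2 and lost its call each time. Rab38 lost it at 0.73, 0.69 and 0.64 without Balb/c 100-2, 400-1 and 400-2. Rab31 lost it at 0.92, 0.71, 0.87 and 0.71 without Balb/c 100-1, 100-2, 400-1 and 400-2. Rab27a lost its call at 0.58 without Balb/c 100-1, and Rab30 at 0.46 without Balb/c 100-1, 0.55 without Balb/c 100-2, 0.56 without C57BL/6 100-1 and 0.58 without C57BL/6 400-5. Rab34, with the adjusted p nearest to the threshold, lost its call without any 1 of 13 arrays, at 0.62 to 0.75. The opposite also happened. Rab11a was called at −1.27 without Balb/c 100-1 and at −0.96 without C57BL/6 200-1. Rab15 was called at −1.13 without Balb/c 200-1, −0.93 without C57BL/6 100-2 and −0.97 without C57BL/6 200-1. Rab23 was called at 1.03 without Balb/c 200-1 and at about 0.80 without C57BL/6 200-1, 200-3 or 400-3. Rab4a was called at 0.67 without C57BL/6 200-1 and Rab21 at 1.29 without Balb/c 100-1. The other members called in some such fit and not in the whole set were Rab1a, Rab1b, Rab12, Rab19, Rab26, Rab29 and Rab39.

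At the study's stricter threshold of 0.001, limma called Rab3b and Rab5c lower and Rab17 higher (5.08% of the members), against 3.85% of all genes in either direction. The methods' t-test called 0 members there, and 11 lower and 16 higher at 0.05. It had 35 at an unadjusted p below 0.05. Its shares over all genes are not given here, so its counts of members have no background beside them.

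The same arrays show whether a gene's signal moved with pool size. Its slope for each doubling of the pool, with strain in the fit, was called in 0 of the 59 members (limma), with 0% of all genes called, and 4 members (6.78%) had an unadjusted p below 0.05 against 4.67% of all genes. Slopes ran from −0.43 to 0.37 with a median of 0.03. The 4 with the smallest p were Rab42 at −0.35 ± 0.11 (SE), Rab26 at −0.43 ± 0.14, Rab2b at 0.30 ± 0.14 and Rab3a at 0.27 ± 0.13, with adjusted p of 0.942, 0.959, 0.959 and 0.959. A slope that differed between the strains was called in 0 members (limma) and 0% of all genes, and 1 member (1.69%) had an unadjusted p below 0.05 against 3.79% of all genes. The smallest p belonged to Rab11a and Rab28. The difference between the slopes, Balb/c minus C57BL/6, was −0.80 ± 0.38 (SE) for Rab11a and −0.92 ± 0.45 for Rab28, with adjusted p of 1 and 1.

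The genes around the Rabs were read from lists of known regulators and effectors, with 111 genes measured. In the strain comparison 19 were lower (17.1%) and 17 higher (15.3%), against the background of 11.4% and 21.1%. With the number format as a block, 2 were lower and 0 higher. Of 7 genes for GDI, escort and prenylation, 1 was lower and 0 were higher. That gene was Gdi2, a GDP dissociation inhibitor, at 5.89 ± 1.12 in Balb/c and 8.53 ± 0.78 in C57BL/6, lower, at −2.85 ± 0.42 (adjusted p = 0.000232) relative to the median gene, and called with the block (adjusted p = 0.0459). Chm, an escort protein, was at 0.20 ± 0.21 (adjusted p = 0.12) and Rabggtb, the catalytic subunit of the geranylgeranyl transferase, at −0.80 ± 0.29 (adjusted p = 0.13). Of 30 GEFs, 6 were lower and 5 higher. Ccz1, a subunit of the Mon1-Ccz1 exchange factor of Rab7, was lower, at −3.90 ± 0.51 (adjusted p = 0.000101) and remained called with the block (adjusted p = 0.0272). Hps1, part of the exchange factor of Rab32 and Rab38, was higher by 0.88 ± 0.26 (adjusted p = 0.00354), and Rin3, an exchange factor of the Rab5 group, lower, at −2.08 ± 0.51 (adjusted p = 0.00815). Of 36 GAPs, 5 were lower and 6 higher. Usp6nl, a GAP of Rab5, was higher by 1.35 ± 0.32 (adjusted p = 0.00139), Sgsm2, a GAP of Rab32 and Rab38, higher by 1.01 ± 0.29 (adjusted p = 0.00369), and Evi5, a GAP described for Rab11, lower, at −1.73 ± 0.38 (adjusted p = 0.00472). Of 39 effectors, 8 were lower and 6 higher. Ehbp1, which binds Rab8 and Rab10, was lower, at −2.06 ± 0.35 (adjusted p = 0.000795), its relative Ehbp1l1 higher by 1.24 ± 0.33 (adjusted p = 0.00287), and Rilpl2, which binds Rab8 and Rab10 near the centrosome, lower, at −1.95 ± 0.41 (adjusted p = 0.00331). Apart from Gdi2 and Ccz1, the genes named here as lower or higher were not called with the block. Rin3 went from −1.87 to −0.75 as deposited (adjusted p = 0.438 with the block) and Evi5 from −1.52 to −0.99 (adjusted p = 0.216). The adjusted p with the block was 0.171 for Hps1, 0.119 for Usp6nl, 0.0997 for Sgsm2, 0.0568 for Ehbp1, 0.17 for Ehbp1l1 and 0.136 for Rilpl2.

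Some markers of cell types were also called between the strains, beside 11.4% of all genes called lower and 21.1% called higher. Of 6 neuron markers 1 was lower, with list means of 6.82 to 8.37 in Balb/c and 7.99 to 8.76 in C57BL/6. Of 5 pyramidal markers 2 were lower and 1 higher, with 7.27 to 8.77 against 8.05 to 9.50. Of 6 interneuron markers 2 were lower and 1 higher, with 7.24 to 7.69 against 7.26 to 8.22. Of 6 microglia markers 2 were higher, with 6.88 to 7.26 against 5.92 to 7.19. Of 6 oligodendrocyte markers 2 were higher, with 6.11 to 6.84 against 6.18 to 6.76, and of 6 astrocyte markers 0 were called, with 6.20 to 7.02 against 6.08 to 6.78. The lower ones were Map2, Crym, Neurod6, Gad1 and Sst, and the higher ones Camk2a, Pvalb, Csf1r, Tmem119, Mag and Mbp. Crym was at −3.98 and Gad1 at −2.18 as deposited. With the number format as a block only Crym and Gad1 were still called, at −2.65 (limma adjusted p = 0.0468) and −1.88 (adjusted p = 0.0338). No marker was at 0, since the deposited log2 values carry no zero. The part of these markers, of the receptor gene shift, of the Actb 3' minus 5' signal and of sequence differences between the strains under the probes in the Rab results was not tested.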

How the data were processed

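RNA from pools of dendrites was measured on an Affymetrix mouse array. The authors deposited log2 signals for each probe set, for which the submitters' notes name RMA 2.0, and took the upper decile over the probes of a set. No genome build is used for them here. The methods also name median centring with range scaling, run here as an alternative.

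Of 45101 probe sets, 64 were controls, 34945 had 1 symbol, 932 several and 9160 none, and the median per symbol gave 18193 genes. Values were not filtered for low signal. Strains were compared in R 4.3.3 with lmFit and eBayes of limma 3.58.1, using every gene, all 19 arrays and strain as the only term, with p adjusted by Benjamini-Hochberg at 0.05. Pool size was fitted per doubling of dendrites with strain as a covariate, then as an interaction with strain. The number format of the deposited columns, 14 or 9 decimals, served as a block, since no source states a batch. Scripts were tested on simulated data. Promoter windows came from RefSeq (GRCm38.p6).

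The members, roles, lists and naming rule were chosen with earlier results of these data known. Named were the 6 members with the largest called difference either way, the 3 with the smallest p in each role, Rab3a, Rab4a, Rab5a, Rab8a and Rab11a, the 4 and 2 members with the smallest p in the pool size fits, and 3 genes of each regulator list. Genes named beyond these were chosen after their values were seen. The pools are labelled as biological replicates without saying whether they came from separate cultures, so p-values cover no more than the spread among these pools. The number of arrays limits the precision. The methods' t-test, taken to have equal variances, was run on the values as deposited.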

Additional observations from a re-analysis of the deposited data

Results flagged for a closer look

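In 3 of 38 groups tested for a value far from the rest, a single Balb/c array stood apart in a named Rab gene, and chance alone picks out about 1 group in 20. Rab3b, the gene with the largest strain difference among the members, was at 10.24 in Balb/c 200-1 while the other 4 Balb/c arrays ran from 6.51 to 7.03. Rab10 was at 10.81 in the same array, with the others at 7.69 to 8.42. Both values lay inside the C57BL/6 range, and over all genes the array labelled Balb/c 200-1 correlated better with C57BL/6 (mean correlation 0.782) than with the other Balb/c arrays (0.678). Rab11b was at 7.235 in Balb/c 400-2, with the others at 8.67 to 8.91. The cause was not tested in any of the 3.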

How the results depend on the processing

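The count of Rab genes lower in Balb/c, 11, was 1 with the number format as a block, 0 within the long format, 7 in pools of 100 dendrites, 0 with a replicate block and 23 after a shift by the receptor gene median, an alternative chosen after seeing the data. The count higher in Balb/c, 16, was 0, 0, 3, 0 and 1 under the same settings, 4 without the 2 arrays with the fewest distinct levels (Balb/c 100-2 and 400-1), 6 in pools of 400 dendrites and 26 when counting members with a probe set called higher and none called lower. Leaving out 1 array at a time gave 10 to 13 lower, 11 to 19 higher and 0 members with a pool size slope. Regulators lower in Balb/c, 19, were 2 with the format block and 6 without the 2 arrays. Regulators higher, 17, were 11 after quantile normalisation, 0 with the format block, 26 without the 3 arrays that stand apart and 3 without the 2 arrays. Apart from the format block and the long format, the shares of all genes called under these settings are not given here. The changes in count are therefore not shown to be particular to the Rabs or their regulators. The cause of these changes was not tested beyond the smaller number of arrays in some fits.

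Signs turned in a few genes. With the brightest probe set, the called members Rab2a, Rab38, Rab43 and Rab30 were at 0.51, −0.15, −0.58 and −0.06. Rab3a was at 0.17 without the 2 arrays and between −0.43 and 0.037 with 1 array left out, above 0 without Balb/c 100-1 (0.022) or 100-2. Rab4a was at −0.057 without ambiguous probe sets and −0.14 after the receptor shift. Rab8a was at −0.14 with the format block and within the long format, −0.15 with the replicate block and −0.44 after the receptor shift. Rab28 was at 0.46 in pools of 100. Of 20 named members called, 19 were called after quantile normalisation and 14 with the brightest probe set.

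Replicate numbers did not pair the arrays. Across 5 same-numbered pairs, deviations from group means correlated between −0.189 and 0.0714, and 0 arrays correlated best with their own number. The replicate block called 0 members. Signal over background limits the 31 members that were above the receptor genes' 95th percentile in 0 arrays. They include every member called higher except Rab36, Rab11b, Rab31 and Rab38, and of the members called lower only Rab18. Even the receptor median was passed by Rab27a in 0 arrays, by Rab37 in 3 and by Rab25, Rab30 and Rab34 in 4.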
